A study of Mus musculus with 22 samples.

Results

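Prdm1 and Tfap2c, which encode the transcription factors Blimp-1 and AP-2 gamma, were followed over all 22 arrays of the series. They were chosen by name, as 2 of the 27352 genes measured, and each was read by 1 of the 41174 probes. The Prdm1 probe lies at mm9 chr10:44157291-44157350 on the minus strand and starts at base 4773 of transcript NM_007548. The Tfap2c probe lies at mm9 chr2:172383860-172383919 on the plus strand and starts at base 2575 of NM_009335. The deposited files name the latter Tfap2c on 4 arrays and by its older symbol Tcfap2c on 18.

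The study asked how primordial germ cells (PGCs), the embryonic precursors of eggs and sperm, become pluripotent in culture. Each group was 1 array, so no group had a replicate, and nothing in the labels ties an array to separate cultures or animals. One set began with PGCs isolated at E11.5 and not cultured. It went on with a culture in bFGF for 1 day, cultures in bFGF, 2i and A83-01 for 2, 3 and 6 days, a culture of 10 days, whose medium is not given, and an embryonic germ cell (EGC) line. 2i stands for the MEK inhibitor PD325901 at 1 µM with the GSK inhibitor CHIR99021 at 3 µM, and A83-01, at 250 nM, inhibits activin and TGF-beta receptors. Another set held day 2 PGC cultures with bFGF alone, or with bFGF and the MEK inhibitor, the GSK inhibitor, A83-01, 100 nM 4-hydroxytamoxifen (4OHT), or 2i, A83-01 and 4OHT together. The labels say that 4OHT was added to activate AKT, without giving the allele of those PGCs. The last set held an embryonic stem cell (ESC) line and EBRTcH3 ESCs, which were parental or carried forced Prdm14, Vasa, Nanos2, Nanos3, Dnd, GFP or Blimp-1. The GFP and Blimp-1 constructs were driven by EF1a with an IRES-GFP and taken at day 2, and the driver of the others is not given. All cultures contained LIF and serum replacement. Sorting used SSEA-1 for PGCs, EGCs and ESCs, and GFP for cells with a construct. A level below is the log2 intensity of a probe minus the log2 of its array's 75th percentile, and a log2 difference of 1 is a 2-fold change. In bulk samples like these, fewer cells of a type and less RNA per cell cannot be told apart.

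Blimp-1 is a PR-domain zinc finger repressor. BMP signalling switches Prdm1 on in a few epiblast cells, where Blimp-1 shuts down the somatic programme and marks the first PGC precursors. AP-2 gamma acts downstream of Blimp-1 in those cells and, with Prdm14, forms a small network that is enough to set the germ cell fate. Tfap2c is also a gene of the trophoblast and is expressed in ESCs. Blimp-1, in contrast, is reported to be lost when PGCs are turned into EGCs in culture. On these arrays the Prdm1 RNA of the EGC line was within 2-fold of that of uncultured PGCs.

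The promoters of genes of this network show what the binding motifs of both factors look like. Each sequence is the 250 bases before the RefSeq transcription start (GRCm38.p6), 5′ to 3′ on the gene's strand, with matches in capitals. Searched on both strands were the AP-2 palindrome GCCNNNGGC and the Blimp-1 core GAAAGTG. Prdm1 lies on the minus strand at chr10:44458749-44458998, Nanos3 on the minus strand at chr8:84176553-84176802, Kit on the plus strand at chr5:75574737-75574986 and Socs3 on the minus strand at chr11:117969367-117969616.
Prdm1: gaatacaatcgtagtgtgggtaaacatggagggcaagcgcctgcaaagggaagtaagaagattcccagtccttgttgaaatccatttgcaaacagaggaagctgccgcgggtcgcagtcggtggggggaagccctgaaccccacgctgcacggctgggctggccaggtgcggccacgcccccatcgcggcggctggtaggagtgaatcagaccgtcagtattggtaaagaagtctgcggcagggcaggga
Nanos3: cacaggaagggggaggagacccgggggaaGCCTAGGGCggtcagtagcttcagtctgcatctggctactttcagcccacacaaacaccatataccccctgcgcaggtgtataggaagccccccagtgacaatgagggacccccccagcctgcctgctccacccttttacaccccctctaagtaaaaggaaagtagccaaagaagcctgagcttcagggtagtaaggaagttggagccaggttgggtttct
Kit: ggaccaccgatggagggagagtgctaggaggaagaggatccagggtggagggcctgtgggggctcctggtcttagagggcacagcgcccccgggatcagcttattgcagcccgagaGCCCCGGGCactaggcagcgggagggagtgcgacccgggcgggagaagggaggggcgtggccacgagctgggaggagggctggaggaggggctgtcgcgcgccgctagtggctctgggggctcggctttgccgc
Socs3: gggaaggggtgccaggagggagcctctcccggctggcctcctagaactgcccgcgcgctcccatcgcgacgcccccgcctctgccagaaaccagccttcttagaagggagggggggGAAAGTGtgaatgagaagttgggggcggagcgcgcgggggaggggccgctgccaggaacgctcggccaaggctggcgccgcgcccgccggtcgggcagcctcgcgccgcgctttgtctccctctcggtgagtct
Neither motif was found in the Prdm1 window. Nanos3, which encodes an RNA-binding protein that keeps PGCs alive, held the AP-2 letters as GCCTAGGGC starting 221 bases before the start site. Kit, the receptor for stem cell factor, held GCCCCGGGC starting 134 bases before it. Socs3, an inhibitor of LIF signalling counted here among reported Blimp-1 targets, held GAAAGTG, also 134 bases before it. The AP-2 letters stood in 13.6% of 27025 promoters of this length, in 7 of 19 of the PGC specification network and in 6 of 11 of the reported Blimp-1 targets. The Blimp-1 core stood in 3.97% of all promoters, in 0 of 19 of the network and in 1 of 11 of the reported targets. The printed windows are rich in G and C, with 56.4% for Nanos3, 59.2% for Prdm1, 70.8% for Kit and 71.6% for Socs3, and GCCNNNGGC is itself made of G and C. A match describes letters and not binding.

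Across the 22 arrays Prdm1 spanned 4.52 on the log2 scale and Tfap2c 3.19. The Prdm1 level was -0.04 in uncultured PGCs, -0.29 at day 1, -0.98 at day 2, -3.69 at day 3, -3.76 at day 6 and -1.10 at day 10. It was -0.65 in the EGC line and -1.38 in the ESC line. In the other day 2 cultures it was -1.15 with bFGF alone, -1.31 with the MEK inhibitor, -1.91 with the GSK inhibitor, -3.88 with A83-01, -2.67 with 4OHT and -3.24 with 2i, A83-01 and 4OHT. The last was the only array on which Prdm1 was not well above background. Prdm1 was thus low at days 3 and 6, with A83-01 alone and with 4OHT. With the GSK inhibitor it was also below the ESC and EGC lines, by less, and elsewhere it was close to the levels of the lines. In EBRTcH3 ESCs it was 0.47 in the parental line and, by forced gene, 0.64 with Vasa, -0.18 with GFP, -0.28 with Nanos2, -1.11 with Dnd, -1.29 with Nanos3, -1.39 with Blimp-1 and -1.46 with Prdm14. The highest Prdm1 levels of the series were therefore those of EBRTcH3 ESCs with Vasa and without a construct, above uncultured PGCs.

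Tfap2c was well above background on all 22 arrays. Its level was 3.94 in uncultured PGCs, 3.06 at day 1, 2.29 at day 2, 1.40 at day 3, 2.92 at day 6 and 4.02 at day 10. It was 3.45 in the EGC line and 4.30 in the ESC line. The other day 2 cultures stood at 2.22 with bFGF alone, 2.73 with the MEK inhibitor, 3.10 with the GSK inhibitor, 1.34 with A83-01, 3.51 with 4OHT and 4.20 with 2i, A83-01 and 4OHT. The lowest arrays were A83-01 at day 2 and day 3, both also low for Prdm1, but the 4OHT arrays were the highest of the day 2 cultures and day 6 was not low. The EBRTcH3 arrays stood at 3.89 for the parental line and, by forced gene, 4.53 with Blimp-1, 4.18 with Nanos2, 3.93 with Dnd, 3.54 with Prdm14, 3.28 with GFP, 3.06 with Nanos3 and 2.86 with Vasa. Blimp-1 was the highest of all arrays.

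**Figure D1:**
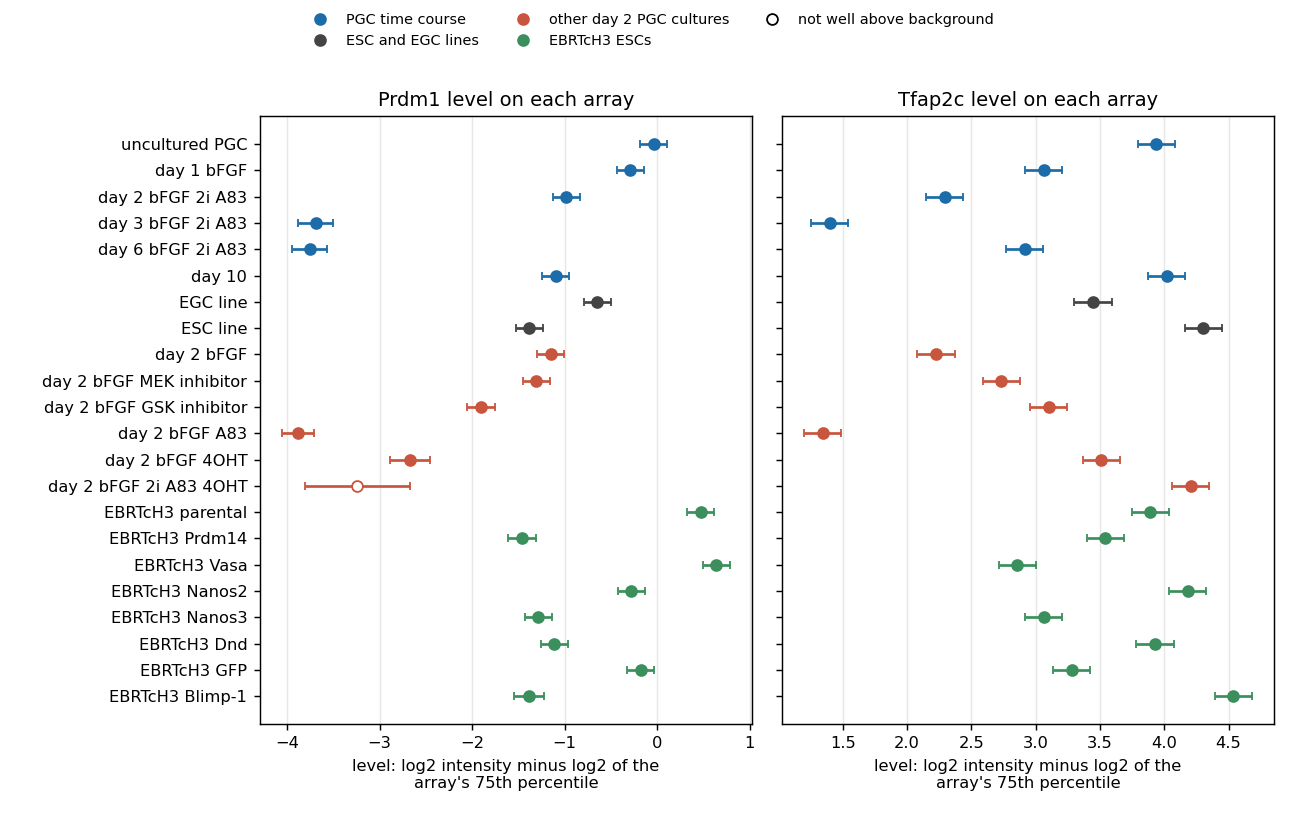
Level of Prdm1 (left) and Tfap2c (right) on each of the 22 arrays, on separate horizontal axes of log2 intensity minus log2 of the array's 75th percentile; bars are the scanner's own error of 1 spot, not a spread between replicates. Prdm1 is below -2.5 on 5 arrays, and Tfap2c is below 1.5 on 2 of those 5. Levels of the 2 probes are not comparable.

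The scanner's error of 1 spot had a median of 0.15 for Prdm1 and 0.14 for Tfap2c on the log2 scale, and reached 0.57 for Prdm1 on the array below background. With the 22 arrays in order of level, 18 of 21 neighbouring pairs for Prdm1 and 19 of 21 for Tfap2c lay within 1.96 times that error of each other. The gaps beyond it for Prdm1 lay between parental EBRTcH3 and uncultured PGCs (0.51), between Prdm14 and the GSK inhibitor (0.44) and between the GSK inhibitor and 4OHT (0.77). For Tfap2c they lay between the MEK inhibitor and day 2 with 2i and A83-01 (0.44) and between day 2 with bFGF and day 3 (0.83). This error covers scanning only. The SD across the 8 EBRTcH3 arrays was 0.85 for Prdm1 and 0.58 for Tfap2c, although those arrays differ by construct.

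The Tfap2c level tended to be lower on brighter arrays, and for Prdm1 this depended on the arrays taken. A level already has the log2 75th percentile subtracted, so its correlation with that percentile can be negative for this reason alone. The 75th percentile intensity of the arrays ranged from 124 to 782, and 44.3% to 64.7% of probes were well above background. On the 6 dimmest arrays, which were 2i, A83-01 and 4OHT, parental EBRTcH3, Blimp-1, uncultured PGCs, Nanos2 and 4OHT, the Tfap2c level was at least 3.51. Over the 22 arrays, which share scanner and design but not slide, the Tfap2c level had a Pearson r of -0.67 and a Spearman rho of -0.64 with the log2 75th percentile, and r was -0.64 without the 2 arrays farthest from the median brightness. After quantile normalization r was -0.49. For Prdm1 the same r was -0.27 and rho -0.38, and r was -0.45 without the 2 farthest arrays. After quantile normalization r for Prdm1 was -0.18. Over the 20 arrays without 4OHT r was -0.60 for Prdm1 and -0.65 for Tfap2c. Over the 14 PGC, ESC and EGC arrays r was -0.05 for Prdm1, with a rho of -0.33, and -0.59 for Tfap2c. With quantile normalization those r were 0.07 and -0.42. The part of brightness in the results below was not tested.

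In the time course, Prdm1 had a large step down from day 2 to day 3 and one of like size up from day 6 to day 10, and Tfap2c was lowest at day 3. The arrays of days 1, 2 and 10 shared 1 slide and those of days 3 and 6 another. In both steps day and slide therefore cannot be told apart. From uncultured PGCs to day 1 Prdm1 differed by -0.25 and Tfap2c by -0.88, while the median of all genes differed by -0.51, and neither gene was 2-fold apart (15.8% of genes were at least 2-fold higher and 34.9% lower). With quantile normalization the Tfap2c difference was -0.26. From day 1 to day 2 the differences were -0.69 and -0.77 with 2i and A83-01, and -0.86 and -0.84 with bFGF alone, all on 1 slide and again short of 2-fold. With 2i and A83-01 3.83% of genes were at least 2-fold higher and 5.04% lower, and with bFGF alone 3.93% and 5.21%. Both genes were thus lower than the median gene after the first day. From day 2 to day 3 Prdm1 was 6.55-fold lower, and 0.464% of 16391 genes had a larger decrease. With normexp background correction and quantile normalization the difference was -1.31. Tfap2c differed by -0.89 in that step, and by -1.07 with quantile normalization. Prdm1 was thus 1 of 2 genes past 2-fold lower in the main scaling, where 5.96% of all genes were and 3.61% were higher.

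Prdm1 stayed low from day 3 to day 6, with a difference of -0.06, whereas Tfap2c was 2.86-fold higher (12.4% of genes were at least 2-fold higher and 7.44% lower). These arrays lay on 1 slide. From day 6 to day 10 Prdm1 was 6.32-fold higher and Tfap2c 2.15-fold higher, so that both were past 2-fold, where 8.22% of all genes were higher and 9.19% lower. With normexp and quantile normalization the differences were 1.29 for Prdm1 and 0.96 for Tfap2c, and with quantile normalization alone Tfap2c differed by 0.95, within 2-fold. From day 10 to the EGC line neither gene was past 2-fold, with 0.45 for Prdm1 and -0.57 for Tfap2c (5.58% of genes were higher and 6.44% lower). The EGC line ended below uncultured PGCs by 0.61 for Prdm1 and 0.49 for Tfap2c, inside 2-fold, where 18.4% of genes were at least 2-fold higher and 25.9% lower. Set against the ESC line it differed by 0.73 and -0.86, with 12.0% of genes higher and 7.03% lower. The slope on log2(day + 1) over the 6 arrays was -0.74 for Prdm1 (SE 0.45, limma adjusted p = 0.558) and -0.04 for Tfap2c (SE 0.34, adjusted p = 0.971). Neither passed, and 1 of 28450 probes did (0.00351%). A single slope cannot describe a course that is low in the middle and high at both ends. Without the day 10 array the slope was -1.53 for Prdm1 and -0.55 for Tfap2c, and without uncultured PGCs the Tfap2c slope was 0.49. Over all such omissions the limma adjusted p ran from 0.316 to 0.843 for Prdm1 and from 0.460 to 0.995 for Tfap2c.

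**Figure D2:**
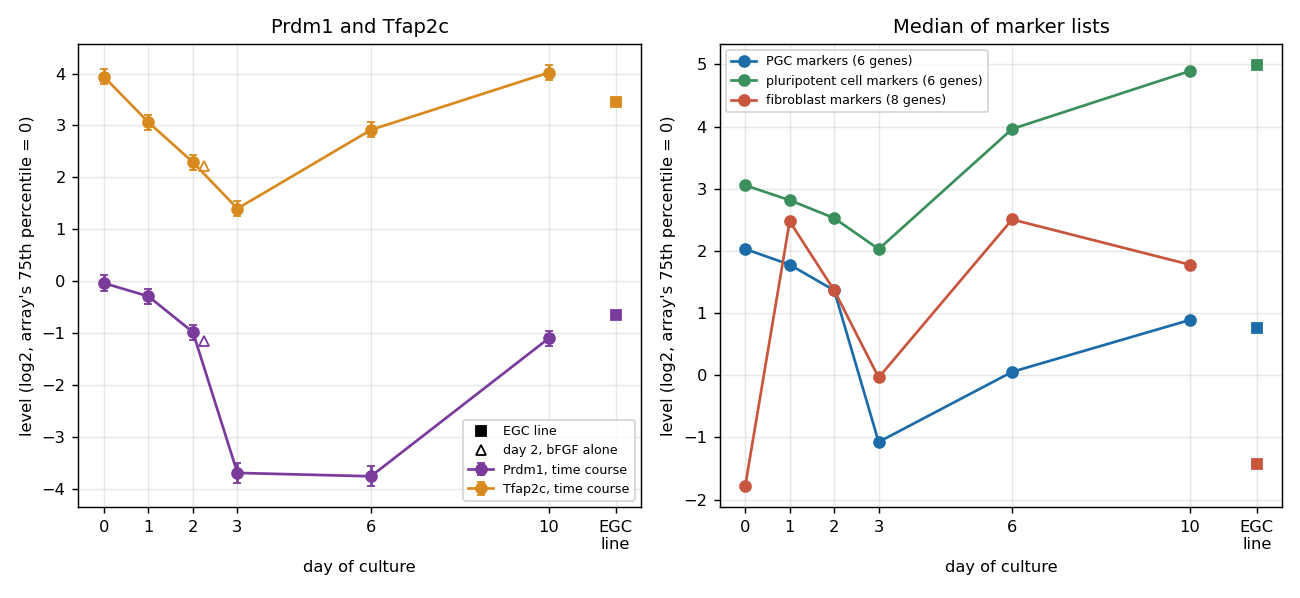
Left, level of Prdm1 and Tfap2c by day of culture, with the scanner's error as bars, squares for the EGC line and open triangles, drawn beside day 2, for bFGF alone; right, the median level of 3 marker lists on the same arrays. Heights of different probes are not comparable: what can be read is the course of each line, with Prdm1 lowest at days 3 and 6 and Tfap2c lowest at day 3.

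The markers of PGCs were low at day 3 as well. The 6 PGC markers on the array (Dppa3, Nanos3, Dnd1, Ddx4, Dazl and Kit; Prdm14 has no probe) were well above background on every array. Their median level was 2.03 in uncultured PGCs, 1.37 at day 2, -1.07 at day 3, 0.05 at day 6 and 0.89 at day 10. All 6 were at least 2-fold lower at day 3 than at day 2, where 5.96% of all genes were. The fibroblast markers, which a PGC sort should not hold, had a summed level of 2.84 in uncultured PGCs and of 8.23, 7.04, 6.22 and 5.69 at days 2, 3, 6 and 10. Their median level ran differently, with -1.78 in uncultured PGCs and 1.37, -0.04, 2.51 and 1.78 on those days. The blood markers had a summed level of 5.47 in uncultured PGCs and at most 1.75 in the later time points. The part of these other cells in the course of Prdm1 and Tfap2c was not tested. From day 3 to day 6 the median difference over the 6 PGC markers was 0.97, while Prdm1 differed by -0.06.

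Of the PGC specification network, a list of 24 genes around both factors, 22 were measured between day 2 and day 3. There, 8 were at least 2-fold lower and 0 higher, against 5.96% and 3.61% of all genes, and the median was -0.24 against 0.04 for all genes. The members furthest down were Dnd1, a germ cell RNA-binding protein, by 3.04, Dppa3 (Stella), a maternal and PGC factor, by 2.40, Kit by 2.12 and Lin28a, an RNA-binding protein that blocks let-7 and lies upstream of Blimp-1, by 1.78. The highest were Bmp8b, a BMP ligand needed for PGC formation (at least 0.73), the interferon-induced membrane protein Ifitm3 (0.64), Bmp2 (at least 0.42) and the BMP transducer Smad4 (0.13). Of the reported Blimp-1 targets 1 of 12 was at least 2-fold higher, the DNA methyltransferase Dnmt3b (1.61) and 0 were lower, beside those same shares of all genes, and the median was 0.11. Among them Snai1 (-0.65), Spib (-0.70) and Socs3 (-0.32) had lower values and Myc (0.46) and Id3 (0.41) higher ones. The AP-2 relatives and cofactors had 0 of 11 members past 2-fold, with Wwox at 0.71, Tfap2e at 0.61, Kctd15 at -0.87 and Tfap2c itself lowest at -0.89.

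A comparison of uncultured PGCs with the 3 pluripotent lines sets both genes in germ cells beside their levels in cells that are already pluripotent. Prdm1 was at -0.04 in PGCs against -1.38, -0.65 and 0.47 in the ESC, EGC and parental EBRTcH3 lines, so PGCs lay inside the range of the lines. The difference was 0.48 (SE 0.94, limma adjusted p = 0.919). Tfap2c was at 3.94 in PGCs against 4.30, 3.45 and 3.89, also inside, with a difference of 0.06 (SE 0.74, adjusted p = 0.990). Neither gene passed, and limma called 0 of 28189 probes (0.00%), while 2695 were below 0.05 before adjustment. Without the ESC line 727 probes passed and without the EGC line 389, and Prdm1 and Tfap2c were not among them. Leaving out 1 line at a time moved Prdm1 between 0.05 and 0.98 and Tfap2c between -0.16 and 0.27. The parental EBRTcH3 array differed from the ESC line by 1.85 for Prdm1, 3.62-fold, and by -0.41 for Tfap2c (1.41 and -1.02 with normexp and quantile normalization), where 32.5% of genes were at least 2-fold higher and 15.3% lower.

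In the network 7 of 22 measured genes were at least 2-fold higher in PGCs and 7 lower, against 20.6% and 18.6% of all genes, and none passed the test. The highest were Nanos3 (4.27), Dnd1 (3.88), Dppa3 (2.51) and Wnt3, the signal that makes the epiblast competent for BMP (2.45). The lowest were Lin28a (-3.32), Bmp8b (-2.56, not well above background in PGCs), Alpl, the tissue-nonspecific alkaline phosphatase used to stain PGCs (-1.78), and Pou5f1 (-1.62). Of the reported Blimp-1 targets 9 of 13 were at least 2-fold lower and 1 higher, with a median of -1.59 against 0.11 for all genes and none past the test. The lowest were Dnmt3b (-5.93), Uhrf1, the maintenance partner of Dnmt1 (-2.96), Socs3 (-2.88) and Dhx38 (-2.23). The highest were the BMP target Id3 (4.97), Myc (0.89) and Hoxb1 (-0.27, not well above background in PGCs). In the same contrast the blood markers had 3 of 5 members higher, with a median of 7.03, and the part of such cells was not tested.

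Of all genes 20.6% were at least 2-fold higher in PGCs and 18.6% lower. Of the 8 measured PR-domain genes 5 were at least 2-fold lower and 0 higher, with Prdm16 lowest (-2.79, not well above background in PGCs), and Prdm2 (-1.65) and Prdm15 (-1.24) among the others. Prdm1, at 0.48, was the only one of the 8 above 0. Among AP-2 relatives and cofactors 3 of 11 were higher and 0 lower: Cited1, a transcriptional co-activator (2.66), Cited2, which binds AP-2 proteins (1.45), and Tfap2e (1.05). Kctd15, which inhibits AP-2, followed at 0.95, and Tfap2c was lowest at 0.06. The Blimp-1 partners, the enzymes and corepressors it recruits, had 2 of 10 higher, the Groucho corepressors Tle3 (1.29) and Tle2 (1.06), and 1 lower, the demethylase Kdm1a (-1.02), while Prmt5, the arginine methyltransferase that Blimp-1 binds in PGCs, differed by 0.02. Tfap2e and Tle3 were at 3.86 and 3.85 in PGCs and at 4.40 and 4.51 in parental EBRTcH3. Prdm2 and Prdm15 were at -3.13 and -2.15 in PGCs. In parental EBRTcH3 they were at -3.62 (not well above background) and -2.22. For these genes PGCs thus lay inside the range of the lines.

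Among the day 2 cultures, Prdm1 was lowest with A83-01 alone. Compared with bFGF alone it was 6.64-fold lower (-2.73), and 0.506% of 17604 genes had a larger decrease, where 5.95% were at least 2-fold lower and 7.13% higher. Tfap2c differed by -0.88, and by -1.02 with quantile normalization. The bFGF array lay on another slide, but the MEK and GSK inhibitor arrays shared the slide of A83-01. On that slide Prdm1 was 5.96-fold lower with A83-01 than with the MEK inhibitor and 3.93-fold lower than with the GSK inhibitor, and Tfap2c was 2.62-fold and 3.38-fold lower. Both genes were thus past 2-fold within the slide in both comparisons, where 4.95% and 9.14% of all genes were at least 2-fold lower and 4.43% and 6.15% higher. With normexp and quantile normalization the Prdm1 differences were -1.32 from bFGF, -1.22 from the MEK inhibitor and -0.84 from the GSK inhibitor, the last within 2-fold.

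With 2i and A83-01 together, at the same A83-01 dose, both genes stood near bFGF alone. On 1 slide Prdm1 differed by 0.17 and Tfap2c by 0.07, neither past 2-fold (2.01% of genes were higher and 1.87% lower). With A83-01 alone Prdm1 was 7.46-fold lower than with 2i and A83-01, across slides, where 6.92% of genes were at least 2-fold lower and 7.40% higher. Tfap2c differed there by -0.95. The MEK inhibitor alone differed from bFGF by -0.16 for Prdm1 and 0.51 for Tfap2c, where 6.42% of genes were at least 2-fold higher and 3.47% lower. The GSK inhibitor alone differed by -0.76 and 0.88, where 11.7% were higher and 6.84% lower. Neither gene was thus 2-fold apart with the MEK or the GSK inhibitor alone. In the additive model over the 7 day 2 arrays the A83-01 term was -1.50 for Prdm1 (SE 0.66) and -0.93 for Tfap2c (SE 0.30), each at a limma adjusted p of 1.00. The MEK inhibitor terms were 1.08 and 0.45 and the GSK inhibitor terms 0.48 and 0.82, with adjusted p of at least 0.913. For each of these 3 terms 0 of 28429 probes passed by limma (0.00%), with 889, 1284 and 1015 at an unadjusted p under 0.05 for the MEK inhibitor, the GSK inhibitor and A83-01. An additive term cannot hold a difference seen with A83-01 alone and not in the mixture, and the residual SD for Prdm1 was 1.05. With slide in place of the 4OHT term the A83-01 term for Prdm1 was -1.58 at an adjusted p of 0.0235, with 1 residual degree of freedom.

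**Figure D3:**
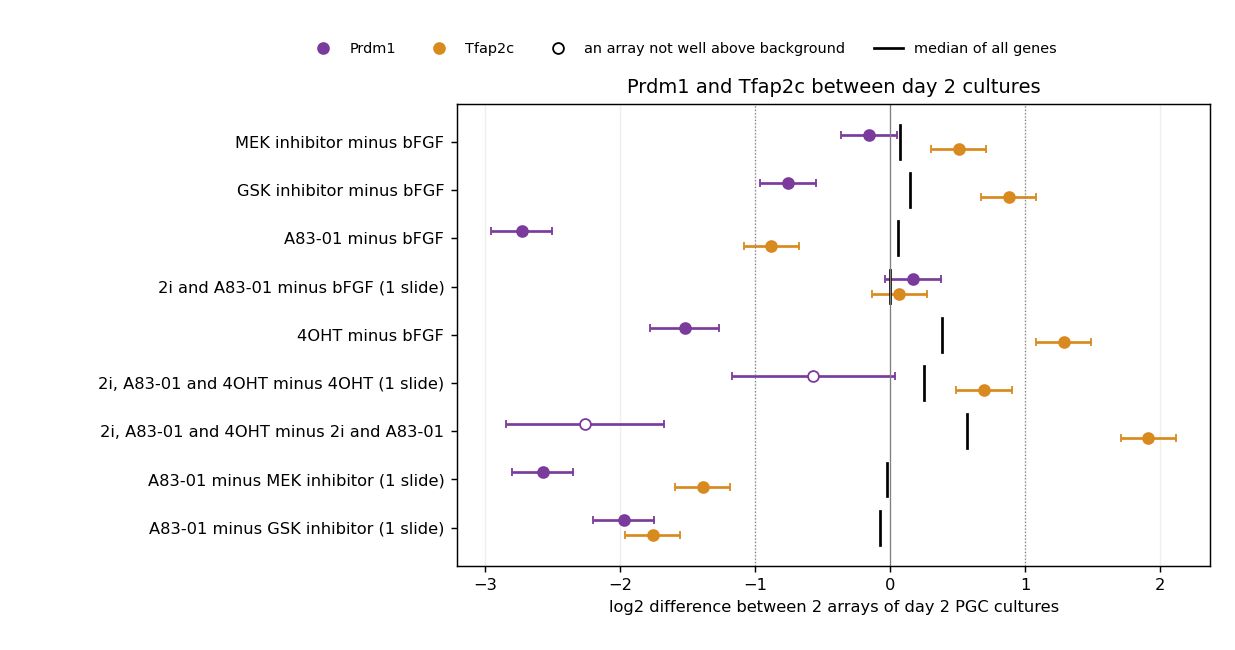
Log2 differences of Prdm1 and Tfap2c between pairs of arrays of day 2 cultures, with the scanner's error of both spots as bars, the median of all genes as a black tick, open points where an array was not well above background and dotted lines at 2-fold. Prdm1 is below the 2-fold line wherever A83-01 alone or 4OHT is set against a culture without it, and Tfap2c is above it in both comparisons that add 4OHT.

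All 6 PGC markers were also at least 2-fold lower with A83-01 than with bFGF, with a median of -1.82. Their median level was 1.06 with bFGF, 0.42 with the MEK inhibitor, 0.78 with the GSK inhibitor and -0.79 with A83-01. Of the network, 9 of 22 genes were at least 2-fold lower and 2 higher, against 5.95% and 7.13% of all genes. Kit was lower by 2.34, Dppa3 by 2.08, Dnd1 by 1.80 and Lin28a by 1.66, and Bmp2 (1.54), Bmp8b (1.03), Wnt3 (0.46) and Bmpr1a (0.32) were the highest. The pluripotent cell markers had 3 of 6 members at least 2-fold lower and the fibroblast markers 6 of 8, with a median level of 2.39 with bFGF and 0.21 with A83-01. The part of other cells in these differences was not tested. Kit and Nanos3, whose promoter windows are printed above, stood at 1.05 and -1.38 with bFGF and at -1.29 and -2.43 with A83-01.

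Of the reported Blimp-1 targets 0 of 12 were at least 2-fold higher with A83-01 and 1 was lower, the B-cell factor Spib (-1.86), where 7.13% of all genes were higher and 5.95% lower. The list median was -0.09 against 0.06 for all genes. The highest were Uhrf1 (0.55), Bcl6 (0.17), Id3 (0.09) and Ehmt1 (0.07), and after Spib the lowest were Snai1 (-0.74), Socs3 (-0.24) and Klf4 (-0.21). Of the Blimp-1 partners 0 of 10 passed 2-fold, between -0.82 for Tle4 and 0.91 for Tle3. Among the AP-2 relatives Tfap2a, a paralogue expressed in ectoderm and neural crest, was higher (1.05), Cited2 (0.79), Tfap2b (at least 0.71) and Tfap2e (0.70) followed, and Tfap2c, Kctd15 (-0.71), Cited1 (-0.66) and Cited4 (-0.55) were lowest. Of the PR-domain genes Prdm1 was the only 1 of 7 past 2-fold.

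With the GSK inhibitor 3 of 22 network genes were at least 2-fold higher, Bmp2 (2.34), Bmp8b (2.30) and Nanos3 (1.27), and 0 lower, against 11.7% and 6.84% of all genes. The AP-2 relatives had 4 of 11 higher, Tfap2a (1.36), Tfap2b (at least 1.20), Cited2 (1.19) and Tfap2e (1.11), where Tfap2c differed by 0.88. The reported Blimp-1 targets had 5 of 12 at least 2-fold lower and 0 higher, with Snai1 (-2.26), Spib (-1.96), Bcl6 (-1.58) and Klf4 (-1.23) lowest, while Prdm1 itself was 0.76 lower. Fibroblast markers had 5 of 8 lower there, and their part was not tested.

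On the 4OHT arrays the genes differed from bFGF in opposite directions. Compared with bFGF alone Prdm1 was 2.87-fold lower with 4OHT and Tfap2c 2.44-fold higher, where 11.3% of genes were at least 2-fold lower and 27.5% higher and the median of all genes was 0.38. Compared with 2i and A83-01, Prdm1 was at least 3.17-fold lower with 4OHT added, a bound because Prdm1 was not well above background there, and Tfap2c was 3.77-fold higher. In that pair 15.3% of genes were at least 2-fold lower and 40.4% higher, with a median of 0.57. The array of 2i, A83-01 and 4OHT differed from 4OHT by 0.69 for Tfap2c, with no fold for Prdm1, where 9.44% of genes were at least 2-fold higher and 4.62% lower. In the additive model the 4OHT term was 1.48 for Tfap2c (SE 0.29, limma adjusted p = 0.0497) and -1.12 for Prdm1 (SE 0.63, adjusted p = 0.223). So 1 of 2 genes passed, against 11.2% of 28429 probes, and the median over all probes was 0.47.

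The pair values and the Tfap2c call depend on the scaling. With normexp and quantile normalization 4OHT differed from bFGF by -0.99 for Prdm1 and by 0.96 for Tfap2c, both within 2-fold, and with quantile normalization alone Tfap2c differed by 0.97. Against 2i and A83-01 Tfap2c differed by 1.15 with normexp and quantile normalization. After quantile normalization the term was 1.01 at an adjusted p of 0.0619 and 0 probes passed by limma. Both 4OHT arrays lay on a slide of their own and had 75th percentiles of 124 and 253, against 476 to 708 for the other day 2 arrays, so 4OHT and slide cannot be told apart. Fibroblast markers had a median level of -1.48 and -3.22 on these arrays against 2.39 with bFGF, and their part was not tested. In the 4OHT term 11.2% of all probes passed. Of the AP-2 relatives and cofactors 5 of 11 did, all upwards: Tfap2e (3.26), Cited1 (2.33), Tfap2c, Kctd15 (1.46) and Cited4 (1.27). Of the reported Blimp-1 targets 1 of 12 passed, downwards, the repressor Bcl6 (-2.18), and of PR-domain genes Prdm2 (-2.60) did. Among trophectoderm genes, where Tfap2c also acts, Krt8 passed at 2.08. In the pair of 4OHT against bFGF 6 of 7 were at least 2-fold higher, where 27.5% of all genes were. None of 22 network genes passed.

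The 7 day 2 cultures were also set against 4 line arrays (ESC, EGC, parental EBRTcH3 and GFP). Prdm1 ranged from -3.88 to -0.98 with a median of -1.91 in the cultures and from -1.38 to 0.47 with a median of -0.41 in the lines. Tfap2c ranged from 1.34 to 4.20 (median 2.73) against 3.28 to 4.30 (median 3.67). The ranges overlapped for both genes. The difference was -1.73 for Prdm1 (SE 0.59, limma adjusted p = 0.0554) and -0.96 for Tfap2c (SE 0.48, adjusted p = 0.187), so neither passed where 21.8% of 30983 probes did. Prdm1 lay near the threshold. It passed with 9 line arrays (-1.58, adjusted p = 0.0105), most of them of the 1 EBRTcH3 line, and not with the EBRTcH3 arrays averaged (-1.54, adjusted p = 0.133) or with slide as a random block (adjusted p = 0.321). Leaving out the ESC line, 2i and A83-01, or bFGF alone gave an adjusted p of 0.0446, 0.0423 or 0.0495, and the other 8 omissions left it above the threshold. Of the same 11 omissions, Tfap2c passed without the array of 2i, A83-01 and 4OHT (-1.20, adjusted p = 0.0490).

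In the same test 9 of 22 network genes passed, where 21.8% of all 30983 probes did. Nanos3 (2.03) and the BMP receptor Acvr1 (1.31) were higher in the cultures, and Lin28a (-4.10), Sox2 (-2.65), Nanog (-2.36), Pou5f1 (-2.12), Kdm1a (-1.46), Hexim1 (-1.42) and Wnt3 (-1.06) lower. Kdm1a is also a Blimp-1 partner. Of the reported Blimp-1 targets Id3 (1.51) was higher and Dnmt3b (-4.05), Klf4 (-1.73) and Uhrf1 (-1.37) lower, and none of 11 AP-2 relatives passed. Of 8 fibroblast markers 6 passed upwards and 1 downwards, with a median of 3.89, and the part of such cells was not tested.

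Forced Blimp-1 in EBRTcH3 ESCs was set against GFP on the same slide. The Prdm1 probe read -1.39 with Blimp-1 and -0.18 with GFP, 2.32-fold lower in the library labelled Blimp-1. The probe lies late in the transcript and the labels do not say whether the construct carries that stretch, so it checks nothing about the construct. Tfap2c was 4.53 with Blimp-1 and 3.28 with GFP, 2.39-fold higher. Both genes were thus past 2-fold, in opposite directions, where 4.29% of 16545 genes were lower and 11.6% higher. In the fit with slide as a block the differences were -1.21 for Prdm1 (SE 1.07, limma adjusted p = 0.999) and 1.25 for Tfap2c (SE 0.73, adjusted p = 0.999), and 0 of 28677 probes passed by limma (0.00%; 1517 at an unadjusted p under 0.05). The Blimp-1 array was among the 3 dimmest, with a 75th percentile of 196 against 409 for GFP.

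Some genes of the PGC network and most trophectoderm genes were higher on the Blimp-1 array than on the GFP array. In the network 5 of 21 were at least 2-fold higher than with GFP and 2 lower: Nanos3 (2.86), Wnt3 (2.00), Dppa3 (1.79), Bmp8b (1.37) and Dnd1 (1.02) against Alpl (-1.48) and Nanog (-1.04). The network median was -0.15 against 0.06 for all genes, of which 11.6% were at least 2-fold higher and 4.29% lower. In the parental line, on another slide, Dppa3 stood at 4.22, near the 4.26 with Blimp-1. Nanos3 (-2.48), Wnt3 (-3.47, not well above background), Bmp8b (-2.63) and Dnd1 (0.27) stood lower there than with Blimp-1. Of the trophectoderm genes 6 of 7 were at least 2-fold higher, among them Hand1 (3.51), Cdx2 (3.23), Krt18 (2.52) and Eomes (2.44), and the median was 2.44 against 0.06 for all genes. This was not particular to Blimp-1. The median level of the 8 trophectoderm genes was -0.90 with Blimp-1, -3.16 with GFP and -0.62 with forced Nanos3. On the other EBRTcH3 arrays it lay between -4.145 and -3.05. Among AP-2 relatives Tfap2b (2.42) and Cited1 (1.42) were higher with Tfap2c. Of the reported Blimp-1 targets 2 of 12 were at least 2-fold lower, Klf4 (-1.41), a pluripotency factor, and Dnmt3b (-1.24), with a list median of -0.37. In the parental line Dnmt3b (2.34) and Alpl (1.49) stood below their levels with Blimp-1 (2.67 and 2.01). Klf4 (4.08) and Nanog (5.23) stood above theirs (3.51 and 3.78). Of the Blimp-1 partners Tle3 (1.48) and Tle2 (1.19) were higher, and of the PR-domain genes Prdm16 (1.07) was higher and Prdm1 and Prdm2 (-1.18) lower. In the parental line Tle3 (4.51) and Cited1 (0.71) stood above their levels with Blimp-1 (3.34 and 0.58), while Tle2, Tfap2b and Prdm16 stood below theirs. Prdm2 (-3.62, not well above background) was also lower in the parental line than with Blimp-1 (-1.74).

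**Figure D4:**
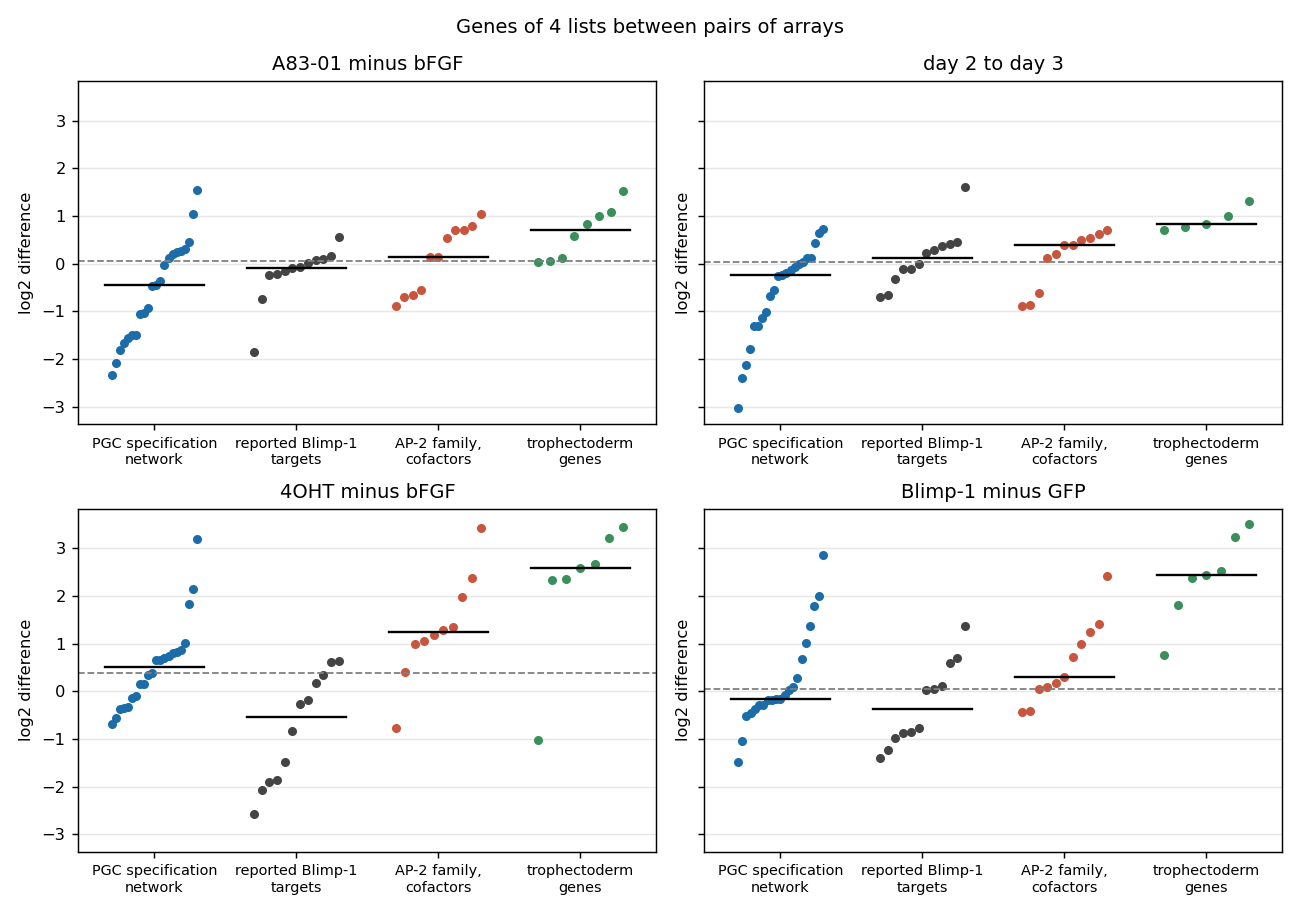
Log2 differences of the measured genes of 4 lists in 4 pairs of arrays, 1 point per gene, with a black bar at each list's median and a dashed line at the median of all genes. The network reaches below -2 for A83-01 and for day 2 to day 3, and the trophectoderm median is above 2 for 4OHT and for Blimp-1.

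In these fits no construct, Blimp-1 included, gave a call for either gene. Of the constructs, only Blimp-1 was also set against a single array by the 2-fold rule. Against the other arrays of its slide Prdm14 had Prdm1 at -2.02 (SE 0.64, limma adjusted p = 0.722) and Tfap2c at 0.16 (SE 0.75), and Vasa had 1.14 and -0.86, Nanos2 0.92 and 0.69, Nanos3 -0.59 and -0.99, and Dnd -0.33 and 0.30. The adjusted p was at least 0.722 for every construct and both genes, and 0 of 28677 probes passed for each (0.00%) by limma, with 618 to 2466 at an unadjusted p under 0.05. On its slide the Prdm14 array read -1.46 for Prdm1 against 0.47 in the parental line and 0.64 with Vasa.

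Over the 22 arrays the levels of both genes had a Pearson r of 0.40 and a Spearman rho of 0.17, and r was 0.22 without the 2 arrays farthest from the Prdm1 median. Over the 12 PGC, ESC and EGC arrays without 4OHT r was 0.63, and over the 8 EBRTcH3 arrays it was -0.31. These arrays share scanner and design and differ in condition, so the values are descriptions.

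**Figure D5:**
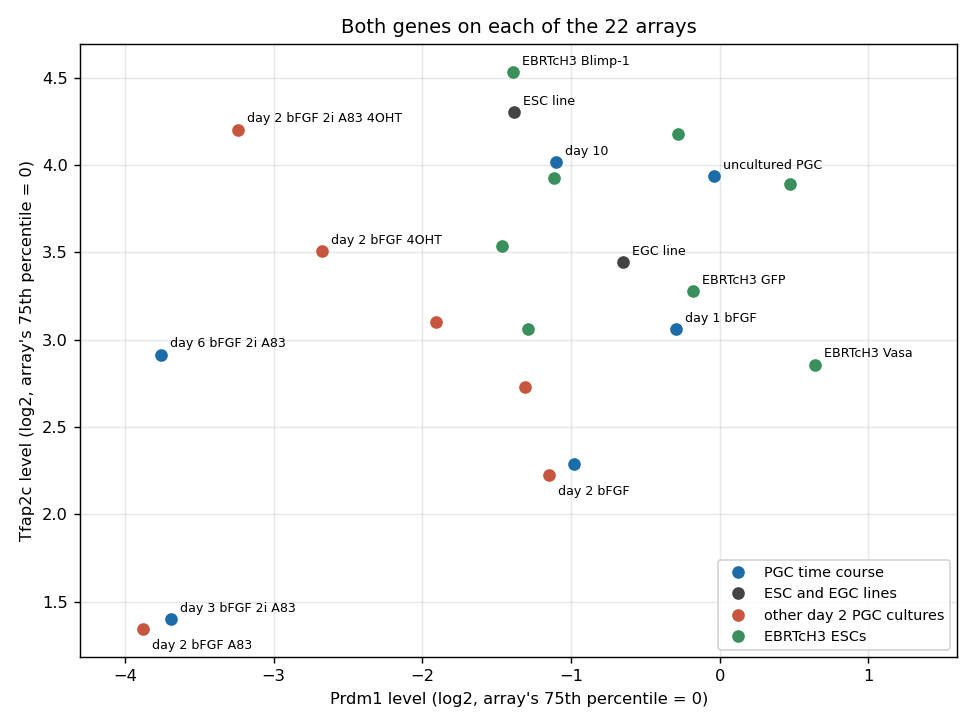
Tfap2c level (vertical) against Prdm1 level (horizontal), 1 point per array, coloured by set. Day 3 and A83-01 at day 2 lie low on both axes, while the 4OHT arrays and day 6 have low Prdm1 with Tfap2c between 2.92 and 4.20.

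The genes most alike in pattern were taken as the 5 highest Pearson correlations over 21 arrays, without Blimp-1, among 15651 genes well above background on at least 11 of them. For Prdm1 they were Myb (0.84), the haematopoietic transcription factor, Abcg1 (0.83), a sterol exporter, Nkapd1 (0.82), Aldh1b1 (0.82), a mitochondrial aldehyde dehydrogenase, and Zmym6 (0.82). Myb read 0.07 in uncultured PGCs, -2.38 at day 2 with bFGF, -3.53 with A83-01 and -4.16 at day 3, and Abcg1 read 2.48, -0.13, -3.16 and -3.79. For Tfap2c they were Wdr31 (0.92), Wdr73 (0.92), 4930447C04Rik (0.90), Fzd9 (0.90), a Wnt receptor, and Fam169a (0.90). Wdr31 read 2.46 in uncultured PGCs, 0.36 at day 2 with bFGF, -0.71 with A83-01, -1.06 at day 3 and 1.74 with 4OHT. These names depend on the arrays taken: over the 14 PGC, ESC and EGC arrays 1 of the 5 recurred for each gene, and by Spearman correlation 2 did.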

How the data were processed

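The data are 22 one-colour Agilent mouse arrays on 10 slides. The authors processed each scan with Agilent Feature Extraction 10.7.3.1 and an mm9 design, per the file headers, and the deposited intensities carry spatial and multiplicative detrending within an array, with surrogate values for dim spots, and have no scaling between arrays. The deposited value table of intensities, equal to them within 0.01 for about 95.2% of values, served as an alternative. Aligners do not apply, and RNA amplification is not given in the sources used here.

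Outlier spots were dropped, repeat spots averaged (SD 0.06 to 0.09 on the log2 scale), and levels set against each array's 75th percentile. Probes were named through RefSeq accessions (27584), symbols (5493) or synonyms (635), and 7462 kept the file's name. The probe with the highest mean level stood for a gene. Differences between 2 arrays have no test, and a dim side was set at that array's lowest level well above background. Models were fitted with limma 3.58.1 in R 4.3.3 over all probes well above background on at least 1 array, with Benjamini-Hochberg adjustment and a threshold of 0.05, and were tested on simulated data. In each fit a group of 1 array borrows the spread of the rest, so p-values measure only the spread between these arrays, whose number limits the precision.

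Members and lists were chosen with earlier results of these data known. The genes named are Prdm1, Tfap2c, the 5 genes most alike in pattern, and up to 4 highest and 4 lowest members of each list in 5 contrasts. Other names, as the genes that passed a test, the forced genes and marker genes, were chosen after their values were seen. Values of some list members are not reported here. Alternatives were normexp (offset 50) with quantile normalization, quantile normalization alone, the value table, other filters on dim probes, slide as a block, other time scales, other line sets and leaving out arrays.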

Additional observations from a re-analysis of the deposited data

Results flagged for a closer look

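The measured values of Prdm1 for 2i with A83-01 had opposite signs with and without 4OHT, and the difference between them was not tested. Without 4OHT the log2 difference was 0.17 against bFGF alone, with a scanner error of 0.21. On 4OHT it was -0.57, with a scanner error of 0.61, and Prdm1 was not well above background on the array of 2i, A83-01 and 4OHT, so that no direction can be read there. By Dixon's gap test no array stood apart from the 7 day 2 cultures or from the 8 EBRTcH3 arrays for either gene. For Prdm1 with A83-01 the gap was 0.22 of the range, against a critical value of 0.568. These arrays differ in condition and the 4OHT arrays were low too, so the test cannot show that no array was unusual.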

How the results depend on the processing

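Every group is 1 array, so the numbers of calls and the sizes below limit what can be read. Under another setting with all arrays, 151 estimates for the 2 genes kept their direction and their side of the threshold, 4 turned direction, 4 gained a call and 1 lost it. With normexp and quantile normalization the Prdm1 differences were -1.31 for day 2 to day 3, 1.29 for day 6 to day 10, 1.41 for parental EBRTcH3 against ESCs, -0.99 for 4OHT, -1.32 for A83-01 against bFGF, -1.42 against 2i and A83-01, -1.22 against the MEK inhibitor and -0.84 against the GSK inhibitor, the last and 4OHT within 2-fold. For Tfap2c the difference on adding 4OHT to 2i and A83-01 was 1.15 with normexp and 1.14 with quantile normalization. Tfap2c in PGCs against lines was -0.069 and -0.056 under these settings. Its slope was 0.071 on linear days, and for Prdm14 it was -0.14 without slide. Prdm1 in day 2 cultures against lines passed with normexp (-1.19), the stricter filter (-1.73) and 9 lines (-1.58), and the A83-01 term for Prdm1 with slide in place of 4OHT (-1.58). The 4OHT term for Tfap2c lost its call with quantile normalization (1.01). Numbers of probes past the threshold for the trend were 2 with normexp, 15 with quantile normalization, 7 without a filter, 34 with the stricter filter, 0 on linear or ranked days and 2 with slide as a block. For PGCs they were 40 with normexp and 75 without a filter, for day 2 cultures 2507 with slide as a block and 12002 with 9 lines, for 4OHT 7681, 0, 22439 and 9102 with normexp, quantile normalization, no filter and the stricter filter, and for A83-01 671 with slide. Leaving out 1 array moved the trend from -1.53 to -0.49 for Prdm1 and from -0.55 to 0.49 for Tfap2c, with 0 probes each time. PGCs against lines ran from 0.05 to 0.98 and from -0.16 to 0.27, with 0 to 727 probes. Day 2 cultures ran from -2.05 to -1.43 and from -1.20 to -0.72, with 4353 to 8869 probes. For constructs Prdm14 ran from -0.35 to 0.68 for Tfap2c and Dnd from -0.83 to 0.18 for Prdm1 and from -0.25 to 0.86 for Tfap2c. Of the 5 genes most alike, 1 recurred over 14 arrays and 2 by Spearman correlation. The cause was not tested. Another probe per gene was not run, since each has 1. No paired analysis was possible because each group has 1 array.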

Other observations

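Trophectoderm genes, among which Tfap2c has its other main role, were also higher with the GSK inhibitor than with bFGF alone. The bFGF array lay on another slide. The median level of the 8 genes was -3.14 with the GSK inhibitor, -3.82 with bFGF, -2.93 with the MEK inhibitor and -2.84 with A83-01. With the GSK inhibitor 5 of 7 measured were at least 2-fold higher than with bFGF and 1 lower, with a median of 1.31, where 11.7% of all genes were higher and 6.84% lower. Krt8 (2.02) and Krt18 (1.76), keratins of simple epithelia, led them, followed by Tead4 (1.59), which acts upstream of Cdx2, and Hand1 (at least 1.31), and Gata3 was lower (-1.09). The levels of Krt8 and Krt18 were 5.89 and 7.02 with the GSK inhibitor, near the 6.17 and 6.99 at day 1. With A83-01 3 of 8 were higher and 0 lower, Cdx2 (at least 1.52), Krt18 (1.08) and Tead4 (1.00), where 7.13% of all genes were higher and 5.95% lower. Of the extraembryonic endoderm markers 2 of 5 were at least 2-fold higher with Blimp-1 than with GFP, Foxa2 (at least 2.94) and Sox17 (1.61), and 0 lower. In that pair 11.6% of all genes were higher and 4.29% lower. Sox17 was higher in the parental line than with Blimp-1. Each value is a difference between 2 arrays with no test, and "at least" marks a gene not well above background on the lower array.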
